A study of Mus musculus with 9 samples.

Results

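The genes described here encode the proteins of the mitochondrial ribosome that carry the symbols Mrpl or Mrps followed by a number and, in some, a letter. They were taken by a rule on the symbol, with earlier results of these data known. Of the 47593 gene symbols in the transcript tables, 77 met the rule. Of these, 50 encode proteins of the large subunit and 26 proteins of the small subunit. The remaining gene, Mrps36, is set apart because its product is now known as a subunit of the alpha-ketoglutarate dehydrogenase complex. Each gene was measured as the sum of its transcripts in FPKM, which count fragments per transcript length and library size. The 77 genes had 290 transcripts, and all 77 genes passed the filter of a mean of 0.5 FPKM in each comparison.

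The study measured RNA bound to ribosomes in medial prefrontal cortex (mPFC) neurons of adult C57BL/6 mice. RiboTag immunoprecipitation was used, which pulls down a tagged ribosomal protein with its RNA, and the sources used here do not name the driver line that restricts the tag to certain cells. Sleeping control mice and control mice in enforced wake both overexpressed green fluorescent protein (GFP) in the mPFC, and a further group in enforced wake overexpressed GFP fused to Fxr1, a relative of the fragile X protein that binds RNA. Each of the 3 groups had 3 libraries, and the labels do not state that these came from separate animals, so p-values measure only the spread between libraries, which may be technical. The smallest steps of the FPKM values put the depth at an estimated 2.99e+07 to 3.73e+07 fragments per library. Fxr1 itself had 32.5 ± 2.03 FPKM in sleep, 33.3 ± 1.97 under enforced wake and 76.9 ± 12.5 with Fxr1 (SD, n = 3 each).

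The mitochondrial ribosome sits in the matrix and translates the small set of proteins encoded by mitochondrial DNA, all of them subunits of the oxidative phosphorylation complexes. Its ribosomal RNAs are made in the mitochondrion, but every one of its proteins is encoded in the nucleus, translated on cytosolic ribosomes and imported. The pull-down is therefore meant to capture the messenger RNA of these proteins while on cytosolic ribosomes. Transcripts made in mitochondria, which are not translated on those ribosomes, were present in the libraries too. How much of the family's RNA was unbound was not measured. Compared with its bacterial relatives the mammalian mitochondrial ribosome has less RNA and more protein, as known from human and pig structures. By those structures 46 of the genes have a bacterial counterpart and 30 encode proteins particular to mitochondria. Neurons depend heavily on oxidative phosphorylation for the ion pumping that follows synaptic activity.

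Promoter windows are shown first because short motifs of known factors are more frequent near the starts of these genes than of genes in general. RefSeq windows of the GRCm38.p6 build, reaching from 250 bases before the start to 50 after it, matched 68 of the 77 genes by symbol, with 74 windows in all. Motifs were searched on both strands as exact letters, CCGGAAG for the ETS family, AAGATGGCG for YY1 and, for NRF1, the palindrome of 10 letters that stands in capitals in the Mrpl39 window, and no matches of different motifs overlapped. The ETS letters stood in 25 of the 74 windows (33.8%), against 8.86% of all 32851 RefSeq windows of the same length. The YY1 letters stood in 8 windows (10.8%, against 1.4%) and the NRF1 letters in 3 (4.05%, against 0.97%). At least 1 of the motifs was present in 34 of the 68 genes, against 12.05% of 27025 genes, and the other 34 had none. The windows of the family had a median GC content of 58.5%, and the windows of all genes were not matched to them for GC content or expression. Whether the excess is particular to this family was not tested. The windows of 5 genes are printed 5′ to 3′ on the gene's strand, with matches in capitals. They were picked with their values known, for showing each motif and both directions of difference between enforced wake and sleep. The first 3 belong to genes that were higher in enforced wake: Mrps18a (chr17:46110754-46111053, plus strand) with ETS and YY1 letters, Mrpl34 (chr8:71464676-71464975, plus strand) with ETS letters, and Mrps11 (chr7:78782881-78783180, plus strand) with YY1 letters read from the other strand. The whole Mrps11 window lies inside the span of Mrpl46 (78775236 to 78783531, minus strand). Its YY1 letters therefore cannot be assigned to Mrps11 rather than Mrpl46, though they are counted for Mrps11 here. The last 2 belong to genes that were lower: Mrpl39 (chr16:84735195-84735494, minus strand) with NRF1 letters and Mrps33 (chr6:39810887-39811186, minus strand) with ETS letters read from the other strand.
Mrps18a: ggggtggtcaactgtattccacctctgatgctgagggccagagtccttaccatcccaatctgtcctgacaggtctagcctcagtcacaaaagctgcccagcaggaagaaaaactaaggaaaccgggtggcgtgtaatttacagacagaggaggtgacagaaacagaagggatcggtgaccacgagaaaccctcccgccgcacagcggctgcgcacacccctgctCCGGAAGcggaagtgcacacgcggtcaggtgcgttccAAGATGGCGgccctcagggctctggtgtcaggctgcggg
Mrpl34: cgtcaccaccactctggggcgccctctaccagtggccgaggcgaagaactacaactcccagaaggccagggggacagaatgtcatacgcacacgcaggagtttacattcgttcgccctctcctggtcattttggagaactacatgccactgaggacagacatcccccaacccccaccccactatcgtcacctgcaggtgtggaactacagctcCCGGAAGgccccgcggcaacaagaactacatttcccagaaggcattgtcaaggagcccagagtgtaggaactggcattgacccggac
Mrps11: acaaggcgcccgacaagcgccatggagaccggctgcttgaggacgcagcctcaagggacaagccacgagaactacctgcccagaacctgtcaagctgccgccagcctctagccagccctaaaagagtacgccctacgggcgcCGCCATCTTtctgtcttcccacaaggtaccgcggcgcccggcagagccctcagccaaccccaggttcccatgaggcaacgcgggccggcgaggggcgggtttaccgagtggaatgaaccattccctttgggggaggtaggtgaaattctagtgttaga
Mrpl39: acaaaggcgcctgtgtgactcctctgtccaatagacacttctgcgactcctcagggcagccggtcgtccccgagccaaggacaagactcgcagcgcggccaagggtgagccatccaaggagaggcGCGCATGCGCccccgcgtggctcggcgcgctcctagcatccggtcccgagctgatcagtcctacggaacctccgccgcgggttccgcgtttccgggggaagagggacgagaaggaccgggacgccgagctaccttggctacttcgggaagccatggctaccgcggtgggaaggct
Mrps33: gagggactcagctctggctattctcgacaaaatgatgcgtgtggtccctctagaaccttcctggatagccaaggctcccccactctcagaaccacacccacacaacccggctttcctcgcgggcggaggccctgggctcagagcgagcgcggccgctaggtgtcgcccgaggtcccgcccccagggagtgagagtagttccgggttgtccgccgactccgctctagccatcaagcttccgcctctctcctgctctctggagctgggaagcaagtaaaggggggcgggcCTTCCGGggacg
Among genes with a window, a motif was present in 5 of the 10 that rose in enforced wake, in 4 of the 9 that fell and in 25 of the 49 others. A match is a run of letters and does not show that a factor binds there.

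All 77 genes were detected. Mean FPKM over the 9 libraries ran from 2.19 to 66.8 with a median of 17.1 and quartiles of 11.8 and 25.2. Most genes lay close together, with 56 at 10 to 30 FPKM, 13 below 10 and 8 above 30. The median was 17.9 FPKM for the large subunit and 13.8 for the small subunit.

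The highest gene was Mrpl30, a large subunit protein with a bacterial counterpart, at 65.4, 68.3 and 69.2 FPKM in sleep, 72.7, 69.5 and 67.5 under enforced wake, and 55.5, 67.3 and 65.7 with Fxr1. Mrpl20, also of the large subunit, followed at 57.0, 62.3 and 60.2 FPKM in sleep, 56.4, 57.7 and 58.4 under enforced wake, and 57.6, 60.0 and 54.2 with Fxr1. Mrps33, a small subunit protein particular to mitochondria, had 58.9, 70.1 and 64.3 FPKM in sleep, 54.0, 54.3 and 48.1 under enforced wake, and 51.7, 62.4 and 54.5 with Fxr1. These neighbours in the order overlapped in their library values, and the means of Mrpl20 and Mrps33 over the 9 libraries were 58.2 and 57.6 FPKM. At the low end stood Mrps35 with a mean of 5.53 FPKM, Mrpl17 with 4.24 and Mrpl53 with 2.19. Mrpl53 was the most variable member in each group: its libraries had 2.82, 4.71 and 0.887 FPKM in sleep, 1.87, 3.17 and 2.06 under enforced wake, and 0.480, 2.37 and 1.35 with Fxr1. It shares 695 exonic bases on the same strand with Gm42688, so its reads could be split between both genes.

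**Figure D1:**
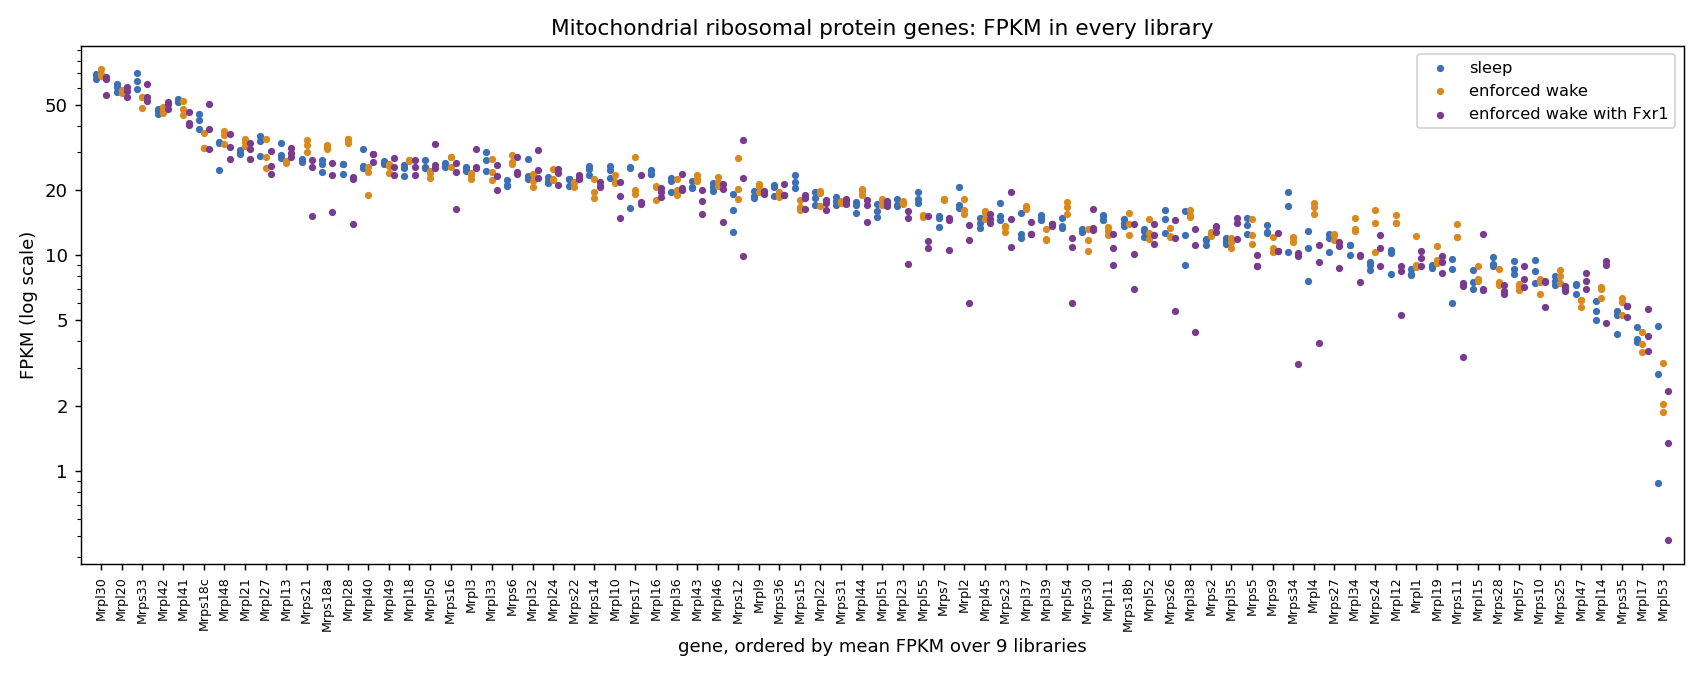
FPKM of the 77 genes in each of the 9 libraries (points, log axis, coloured by group), ordered by the mean over all libraries. The order runs from Mrpl30 at 66.8 FPKM to Mrpl53 at 2.19, with 56 genes at 10 to 30 FPKM.

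Summed over the family, FPKM were 1551, 1550 and 1548 in the sleep libraries, 1566, 1586 and 1516 under enforced wake, and 1368, 1525 and 1412 with Fxr1. The sums of sleep lay inside the range of enforced wake, and the Fxr1 libraries reached lower. They made up 0.473% to 0.518% of all protein-coding FPKM. The ratio of small to large subunit sums stayed between 0.430 and 0.472 in the 9 libraries. The median coefficient of variation between replicates was 5.90% in sleep, 5.95% under enforced wake and 12.1% with Fxr1.

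Fxr1 library 1 stood apart. It was the lowest library of all 9 for 33 of the 77 genes (42.9%), as it was for 39.0% of all genes. The deviations of the 77 genes from their own means had an SD of 0.447 on the log2(FPKM + 1) scale there, against 0.143 to 0.211 in the other 8 libraries. Base composition moved with the libraries too. Across the 77 genes, deviations correlated with GC content at a Spearman rho of 0.38, 0.66 and 0.61 in the enforced wake libraries, -0.57, -0.17 and -0.23 in the Fxr1 libraries, and 0.25, -0.30 and 0.10 in the sleep libraries. These are descriptions across genes, which are not independent, and the part of base composition in the results was not tested. Values with a GC and length trend removed, which also removes real change that follows GC, are given beside the differences of the genes named.

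**Figure D2:**
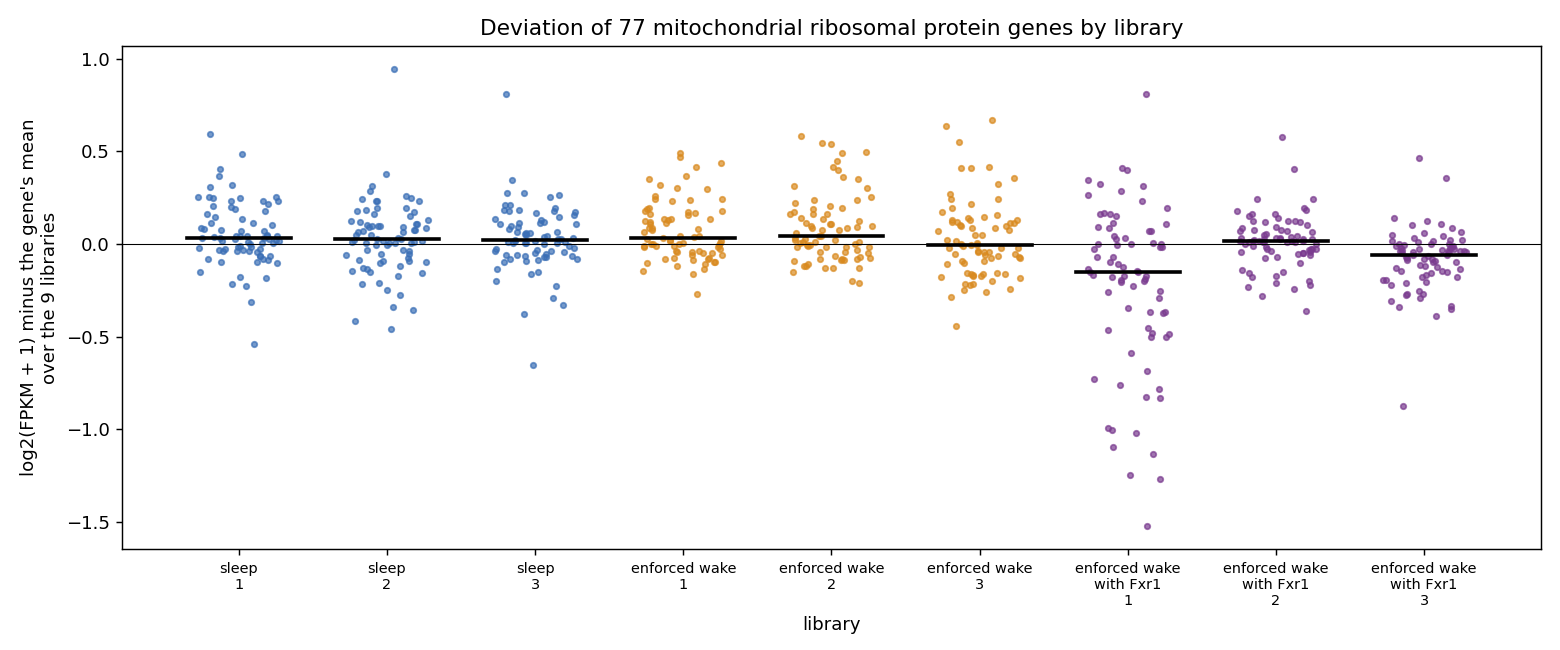
Difference of each gene from its own mean over 9 libraries, on the log2(FPKM + 1) scale, for the 77 genes (points, spread sideways at random) in each library; black bars are medians. Fxr1 library 1 has the widest spread, with an SD of 0.447, and the lowest median.

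Markers of the other cell types in the tissue were measured because RNA of a mixed sample can move with its cell makeup. Fewer cells of a type and less RNA per cell cannot be told apart in these libraries. Excitatory neuron markers summed to 485 to 542 FPKM in sleep, 529 to 608 under enforced wake and 413 to 518 with Fxr1, and inhibitory markers to 277 to 338, 310 to 347 and 272 to 288. Of the 5 inhibitory markers 1, Slc32a1, rose in enforced wake. Astrocyte markers summed to 109 to 128, 118 to 142 and 73.8 to 88.1 FPKM, and 1 of the 5, Gfap, fell with Fxr1 against both control groups. Oligodendrocyte markers summed to 77.1 to 125, 120 to 140 and 105 to 120 FPKM, and 1 of the 5, Mbp, rose in enforced wake. Microglia markers summed to 9.43 to 14.5, 13.3 to 16.4 and 8.38 to 12.4 FPKM, and 1 of the 5, Tmem119, rose in enforced wake. Endothelial markers summed to 7.92 to 10.7, 9.21 to 11.4 and 7.05 to 10.4. With the trend removed, no inhibitory or microglia marker and 1 oligodendrocyte marker rose in enforced wake. Astrocyte markers lower with Fxr1 then numbered 1 against enforced wake and 2 against sleep. In that setting 1 excitatory and 1 oligodendrocyte marker were higher with Fxr1 than in sleep. As deposited, 28.3% of all genes passed in enforced wake against sleep, 0.412% for Fxr1 against enforced wake and 7.79% against sleep. Every marker of these lists passed the filter on low values. The part of other cells in the results on the family was not tested.

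Enforced wake was compared with sleep in the GFP control mice to find messenger RNAs whose ribosome-bound level differs between the states. The family did not move one way: 12 of the 77 genes rose and 9 fell, and the median difference was 0.0056 on the log2(FPKM + 1) scale, against 0.0043 over all 14673 genes tested. The changed genes made up 27.3% of the family, close to the 28.3% of all genes (15.7% higher and 12.7% lower), so the count is no result about the family. In the large subunit 7 of 50 rose and 5 fell, and in the small subunit 5 of 26 rose and 4 fell. Library values did not overlap between the groups for 37 genes, 20 higher and 17 lower (48.1%), against 49.5% of all genes (25.8% higher and 23.8% lower).

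The genes that rose most include proteins from the factor-binding stalk, the peptide exit tunnel and the platform of the small subunit. Mrpl12 (ENSMUSG00000039640, GRCm38 chromosome 11, 120484613 to 120489065) encodes the counterpart of the bacterial stalk protein L7/L12, which recruits translation factors. It had 10.3, 8.21 and 10.6 FPKM in the sleep libraries, 14.1, 14.2 and 15.3 under enforced wake, and 5.29, 8.45 and 8.94 with Fxr1. Every enforced wake library was above every other library. The rise was 0.54 on the log2(FPKM + 1) scale, with an SE of 0.10 (limma adjusted p = 0.0122), and 0.35 with the trend removed (SE 0.06, limma adjusted p = 0.0136).

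Mrps11 (ENSMUSG00000030611, chromosome 7, 78783119 to 78792989) encodes a protein of the small subunit's platform. It had 9.65, 6.04 and 8.65 FPKM in sleep, 12.2, 12.2 and 13.98 under enforced wake, and 3.40, 7.18 and 7.46 with Fxr1. The enforced wake libraries were again above all others, and the rise was 0.62 (SE 0.16, limma adjusted p = 0.0288), or 0.45 with the trend removed (SE 0.13, limma adjusted p = 0.0479). The gene starts head to head with Mrpl46 on the opposite strand, sharing 173 exonic bases, and the sources used here do not state whether strand was used in the estimates. Mrpl12, Mrps7 and Mrpl44, which rose too, also share exonic bases with genes on the opposite strand. In all, 32 of the 77 genes share exonic bases with another gene, 8 of them on the same strand.

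Mrpl4 (ENSMUSG00000003299, chromosome 9, 21002738 to 21008839) encodes a protein that lines the exit tunnel in bacterial ribosomes. Its libraries had 13.0, 7.64 and 10.8 FPKM in sleep, 15.5, 16.8 and 17.5 under enforced wake, and 3.93, 9.29 and 11.2 with Fxr1. The rise of 0.64 (SE 0.17, limma adjusted p = 0.0329) was the largest in the family, and the trend-removed value was 0.30 (limma adjusted p = 0.0918). Mrpl28, another large subunit protein with a bacterial counterpart, had 26.4, 23.9 and 26.6 FPKM in sleep, 34.7, 33.3 and 34.5 under enforced wake, and 13.99, 22.6 and 23.0 with Fxr1. It rose by 0.40 (SE 0.06, limma adjusted p = 0.00732), and had 0.11 with the trend removed (limma adjusted p = 0.114). For both genes the enforced wake libraries lay above all sleep and Fxr1 libraries.

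Smaller rises were seen in Mrps7, a protein of the small subunit's head, by 0.30 from 14.6 ± 0.916 to 18.2 ± 0.101 FPKM, and in Mrpl34 by 0.32 from 10.8 ± 0.624 to 13.7 ± 1.04 (SD, n = 3 each). Mrps18a, which sits in the large subunit in spite of its symbol, rose by 0.27 from 26.2 ± 1.69 to 31.7 ± 0.640 FPKM. Mrpl54, a large subunit protein particular to mitochondria, rose by 0.24 from 13.97 ± 0.763 to 16.6 ± 1.07 FPKM. None of these 4 passed with the trend removed. Mrps7 then had 0.125 (limma adjusted p = 0.0827) and Mrps18a 0.09 (limma adjusted p = 0.197), while Mrpl34 at -0.07 and Mrpl54 at -0.22 turned in direction.

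Mrps6 and Mrps24 rose with a doubt about the source of their reads. Mrps6, the counterpart of a bacterial platform protein, had 21.0, 21.3 and 22.5 FPKM in sleep, 29.4, 26.5 and 27.2 under enforced wake, and 28.5, 24.3 and 23.9 with Fxr1. Both wake groups lay above sleep, and the rise in enforced wake was 0.34 (SE 0.06, limma adjusted p = 0.0116), or 0.19 with the trend removed (limma adjusted p = 0.0562). Mrps6 shares 305 exonic bases on the same strand with Gm49711, which was not analysed here, and 159 with Slc5a3, a myo-inositol transporter gene, which went from 7.06 ± 0.354 to 12.7 ± 0.352 FPKM and rose by 0.77 (SE 0.06, limma adjusted p = 0.00136). How far shared reads carry the rise of Mrps6 was not tested.

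Mrps24, the counterpart of a bacterial protein at the small subunit's messenger RNA entry, had 8.55, 8.99 and 9.32 FPKM in sleep, 10.4, 16.3 and 14.2 under enforced wake, and 10.8, 12.4 and 8.96 with Fxr1. It rose by 0.54 (SE 0.15, limma adjusted p = 0.0396), and had 0.36 with the trend removed (limma adjusted p = 0.124). Its estimate moved between transcripts that share exons. The retained-intron transcript ENSMUST00000020770 was listed at 0 in all sleep libraries, in enforced wake library 1 and in Fxr1 library 3, and had 16.1 and 13.9 FPKM in enforced wake libraries 2 and 3. The coding transcript ENSMUST00000154330 did the reverse, with 9.92 FPKM in enforced wake library 1 but 0.169 and 0.134 in libraries 2 and 3. With coding transcripts alone the difference was -1.97 (limma adjusted p = 0.14).

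The genes that fell include the counterpart of a bacterial protein that binds ribosomal RNA early in assembly. Mrps15 (ENSMUSG00000028861, chromosome 4, 126046925 to 126055532) had 21.9, 23.7 and 20.6 FPKM in sleep, 16.8, 16.2 and 18.1 under enforced wake, and 16.3, 18.6 and 19.2 with Fxr1. Both wake groups lay below sleep. The fall in enforced wake was the largest in the family, at -0.35 (SE 0.07, limma adjusted p = 0.0175), and was -0.55 with the trend removed (SE 0.09, limma adjusted p = 0.0109).

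Mrpl55, a large subunit protein counted among those with a bacterial counterpart, had 18.3, 17.5 and 19.6 FPKM in sleep, 15.1, 15.3 and 15.2 under enforced wake, and 10.9, 15.3 and 11.7 with Fxr1. It fell by 0.26 in enforced wake (SE 0.06, limma adjusted p = 0.0226), or by 0.35 with the trend removed (limma adjusted p = 0.0051). The coding transcript ENSMUST00000108787 had 8.63 ± 1.75 FPKM in sleep, 1.14 ± 0.486 under enforced wake and 0.324 ± 0.310 with Fxr1 (SD, n = 3 each). The gene's sum fell by less, at 18.5, 15.2 and 12.6 FPKM in the same order. The other transcripts of Mrpl55 together were thus higher in both wake groups than in sleep. How far reads moved between its transcripts was not tested. The most abundant transcript, ENSMUST00000045697, had 6.45, 6.84 and 5.93 FPKM in the same order.

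Mrpl39, a large subunit protein related to threonyl-tRNA synthetase, had 14.9, 15.4 and 14.7 FPKM in sleep, 13.3, 11.8 and 11.9 under enforced wake, and 13.9, 13.9 and 13.6 with Fxr1. The 3 groups did not overlap, with Fxr1 between the others, and the fall in enforced wake was 0.26 (SE 0.07, limma adjusted p = 0.0294), with a trend-removed value of -0.19 (limma adjusted p = 0.0455). Mrpl11, at the base of the stalk that carries Mrpl12, had 15.5, 15.2 and 14.6 FPKM in sleep, 13.0, 13.6 and 12.4 under enforced wake, and 9.001, 12.5 and 10.9 with Fxr1. It fell by 0.20 in enforced wake (SE 0.06, limma adjusted p = 0.045), and had -0.18 with the trend removed (limma adjusted p = 0.0556). Mrpl12 and Mrpl11, 2 proteins of the same stalk, thus moved in opposite directions.

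The remaining falls were in Mrpl16 by 0.28 from 24.3 ± 0.618 to 19.9 ± 1.64 FPKM, in Mrps33 by 0.30 from 64.4 ± 5.60 to 52.1 ± 3.53, and in Mrps14 by 0.29 from 24.9 ± 1.297 to 20.3 ± 2.15 (SD, n = 3 each). Mrps18c, the member of the Mrps18 trio that takes the bacterial position in the small subunit, fell by 0.33 from 42.1 ± 3.31 to 33.2 ± 3.08 FPKM. Its relative Mrps18a rose, as given above. Mrps18c shares 250 exonic bases on the same strand with Gm43511, and how far shared reads carry its fall was not tested. Mrpl57, particular to mitochondria, fell by 0.25 from 8.77 ± 0.650 to 7.18 ± 0.223 FPKM. None of these 5 falls passed with the trend removed. Mrpl16 then had -0.21 (limma adjusted p = 0.0575) and Mrps18c -0.19 (limma adjusted p = 0.0752). The values of Mrps33, Mrps14 and Mrpl57 were -0.11, -0.08 and -0.07 (limma adjusted p = 0.146, 0.574 and 0.291). The differences of the 56 genes that did not pass ran from -0.32 to 0.44 on the log2(FPKM + 1) scale.

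**Figure D3:**
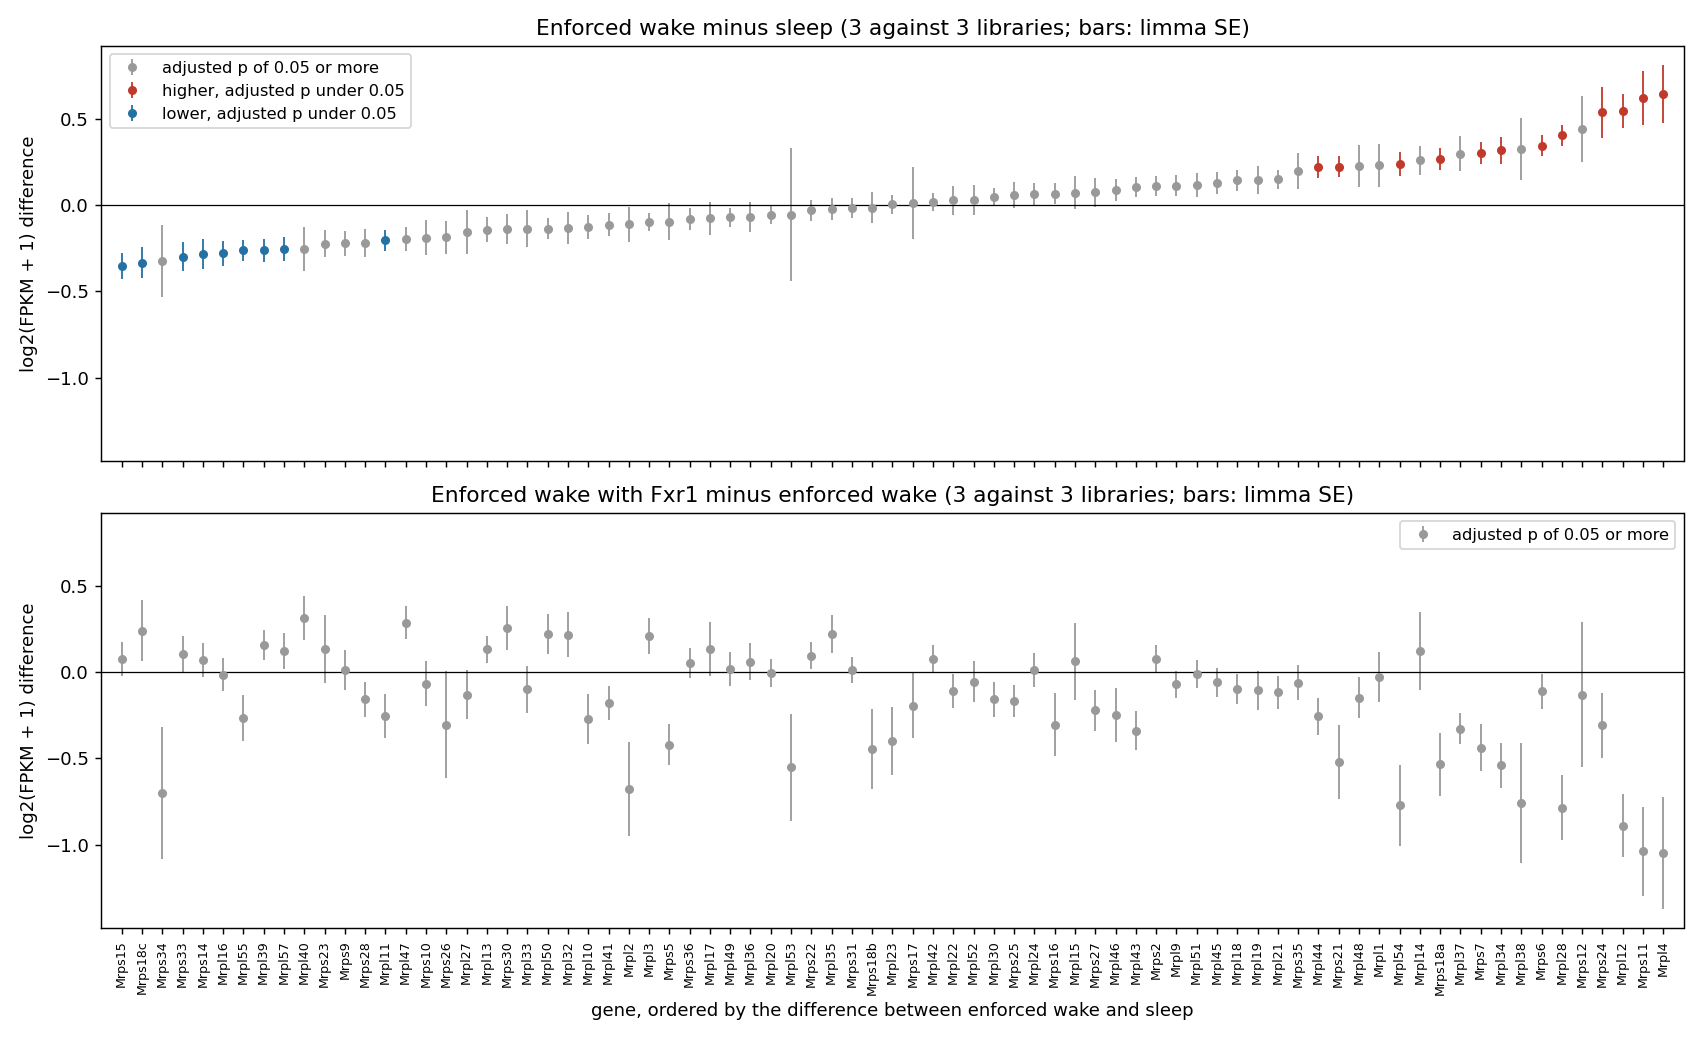
Difference in log2(FPKM + 1) with the limma SE for the 77 genes, ordered by the difference between enforced wake and sleep (upper panel), with the difference between enforced wake with Fxr1 and enforced wake in the same order (lower panel). In the upper panel 12 genes are higher and 9 lower at an adjusted p under 0.05; in the lower panel none passes. Both panels use the same enforced wake libraries.

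The direction of the change moved with base composition. Genes that rose had a median GC content of 55.3%, those that fell 48.2% and the others 49.0%. The median difference was -0.10 in the 26 genes with the lowest GC content, -0.03 in the middle 25 and 0.23 in the 26 with the highest, or 0.02, -0.0031 and -0.03 with the trend removed. Spearman's rho between GC content and difference was 0.40 over the 77 genes and 0.54 over all genes. With the trend removed 8 genes were higher and 6 lower (18.2%, against 23.6% of all genes, 10.4% higher and 13.2% lower). Of these, Mrpl12, Mrps11 and Mrpl44 had also risen before and Mrps15, Mrpl55 and Mrpl39 had also fallen. Mrpl44 was named after its value was seen. When all 9 libraries set the spread, 1 gene was higher, Mrps6, and 1 was lower, Mrps15 (2.6%, against 9.56% of all genes, 4.58% higher and 4.99% lower). Without sleep library 1, 2 or 3 the counts were 11, 8 and 4 higher and 5, 3 and 1 lower. These were 20.8%, 14.3% and 6.49% of the family, against 24.7%, 21.5% and 19.3% of all genes. Without enforced wake library 1, 2 or 3 they were 5, 3 and 3 higher and 3, 1 and 1 lower, or 10.4%, 5.19% and 5.19%, against 17.5%, 12.4% and 12.7% of all genes.

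**Figure D4:**
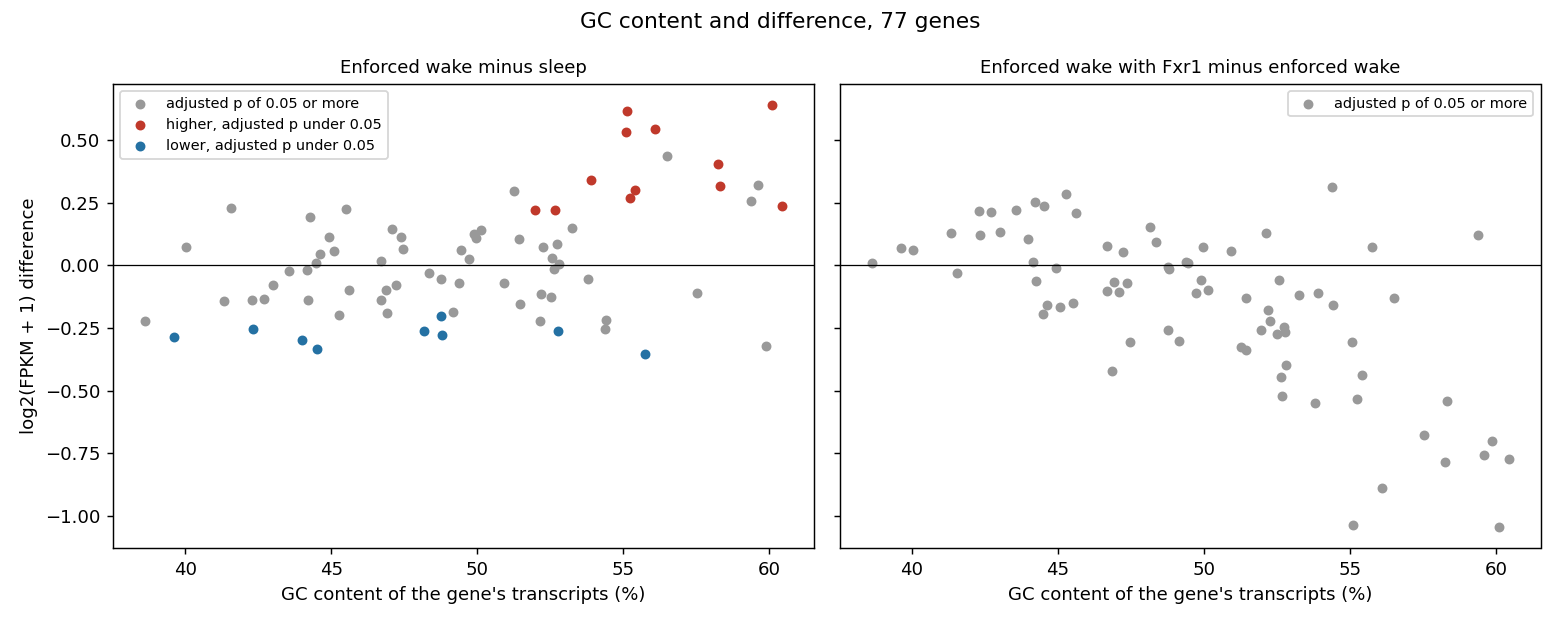
GC content of each gene's longest transcript (%) against the gene's log2(FPKM + 1) difference for the 77 genes, for enforced wake minus sleep (left) and enforced wake with Fxr1 minus enforced wake (right). Differences rise with GC content on the left (rho 0.40) and fall with it on the right (rho -0.65); the panels share the enforced wake libraries.

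Enforced wake with Fxr1 was compared with enforced wake to find what Fxr1 overexpression changes in the waking state. No gene of the family passed in either direction, where 0.412% of all 14563 genes did (0.0824% higher and 0.33% lower). At an unadjusted limma p under 0.05 there were 15 genes, 2 higher and 13 lower (19.5%, against 38.3% of all genes, 12.9% higher and 25.4% lower), and the lowest adjusted p was 0.0878. The differences of the 77 genes ran from -1.05 to 0.31 on the log2(FPKM + 1) scale, with a median of -0.11 against -0.06 over all genes, and the family's median was -0.02 with the trend removed. Library values did not overlap for 7 genes that were higher and 21 that were lower with Fxr1 (36.4%, against 52.5% of all genes, 20.3% higher and 32.3% lower).

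The largest differences, none of which passed, were in genes already given by library. Mrpl4 differed by -1.05 (SE 0.32, limma adjusted p = 0.0912), Mrps11 by -1.04 (SE 0.26, limma adjusted p = 0.0878) and Mrpl12 by -0.89 (SE 0.18, limma adjusted p = 0.0878). Mrpl28 differed by -0.78 (SE 0.19, limma adjusted p = 0.0878). In all of these every Fxr1 library was below every enforced wake library, and Fxr1 library 1 was the lowest of the 9. Mrpl54 had 13.4, 13.7 and 14.8 FPKM in sleep, 16.8, 17.6 and 15.5 under enforced wake, and 6.01, 10.99 and 12.1 with Fxr1. It differed by -0.77 (SE 0.24, limma adjusted p = 0.0909) and by 0.17 with the trend removed. The trend-removed differences of Mrpl4, Mrps11, Mrpl12 and Mrpl28 were -0.27, -0.55, -0.36 and -0.09, all smaller (limma adjusted p = 0.286, 0.136, 0.0942 and 0.373). This comparison shares its enforced wake libraries with the one against sleep.

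Leaving out Fxr1 library 1 changed the count to 1 higher and 12 lower, where 22.8% of all genes passed (5.69% higher and 17.1% lower). The 12 include Mrpl12 at -0.68 (SE 0.07, limma adjusted p = 0.00582), Mrpl28 at -0.56 (SE 0.05, limma adjusted p = 0.00509), Mrps11 at -0.73 (SE 0.08, limma adjusted p = 0.00678) and Mrpl4 at -0.65 (SE 0.10, limma adjusted p = 0.0117). With that library left out and the trend removed, 2 genes were higher (Mrpl14, named after its value was seen, and Mrps15), none was lower, and 1.66% of all genes passed (0.599% higher and 1.06% lower). The median difference was 0.07 in the 26 genes with the lowest GC content, -0.10 in the middle 25 and -0.44 in the 26 with the highest with all 6 libraries, and -0.15, 0.02 and 0.04 with the trend removed. When all 9 libraries set the spread, 1 gene was higher (Mrpl47, named after its value was seen) and 10 were lower (14.3%, against 23.0% of all genes, 6.71% higher and 16.3% lower).

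Mrpl14 went the other way and is named after its values were seen. It encodes a large subunit protein at the face that meets the small subunit, and had 5.52, 6.12 and 5.04 FPKM in sleep, 7.01, 7.12 and 6.37 under enforced wake, and 4.87, 9.04 and 9.47 with Fxr1. Libraries 2 and 3 with Fxr1 were the highest of the 9 and library 1 the lowest. The difference from enforced wake was 0.12 (SE 0.23, limma adjusted p = 0.701) with all libraries and 0.39 without library 1 (SE 0.07, limma adjusted p = 0.021). It was 0.99 with the trend removed (SE 0.08, limma adjusted p = 0.00907), where 0.31% of all genes passed (0.124% higher and 0.186% lower) and no other gene of the family did.

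Enforced wake with Fxr1 was also compared with sleep, in a fit over all 9 libraries. Here 4 genes of the family fell and none rose (5.19%, against 7.79% of all 14617 genes, 3.2% higher and 4.58% lower). All 4 have a bacterial counterpart, as do 46 of the 77 genes, and 2 belong to each subunit. With the trend removed Mrps28 was not called and Mrpl57, particular to mitochondria, was called lower. The median difference was -0.11 on the log2(FPKM + 1) scale, against -0.09 over all genes. With the trend removed the family's median turned to 0.03. Library values did not overlap for 3 genes that were higher and 17 that were lower (26.0%, against 32.7% of all genes, 11.5% higher and 21.2% lower).

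Mrpl55 and Mrpl11, given above, fell by 0.53 (SE 0.12, limma adjusted p = 0.0339) and 0.46 (SE 0.11, limma adjusted p = 0.0412), and had -0.30 and -0.41 with the trend removed (limma adjusted p = 0.0442 and 0.0259). Their Fxr1 libraries were all below their sleep libraries. Mrps28, the counterpart of a bacterial small subunit protein, had 8.93, 9.13 and 9.83 FPKM in sleep, 7.33, 7.56 and 8.69 under enforced wake, and 6.84, 6.63 and 7.30 with Fxr1. It fell by 0.38 (SE 0.09, limma adjusted p = 0.0365), with the Fxr1 libraries below all others, and had -0.07 with the trend removed (limma adjusted p = 0.725).

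Mrps5, the counterpart of a bacterial protein near the messenger RNA entry of the small subunit, had 14.98, 12.6 and 13.8 FPKM in sleep, 14.8, 11.4 and 12.5 under enforced wake, and 8.91, 8.97 and 10.1 with Fxr1. It fell by 0.52 (SE 0.11, limma adjusted p = 0.0304), or by 0.53 with the trend removed (limma adjusted p = 0.0156), and the Fxr1 libraries were below all others. The coding transcript ENSMUST00000028852 had 6.26 ± 0.0815 FPKM in sleep, 6.48 ± 0.366 under enforced wake and 6.46 ± 0.623 with Fxr1 (SD, n = 3 each). The lower sum lay in the retained-intron transcript ENSMUST00000134101, with 7.22 ± 1.28, 5.62 ± 2.26 and 2.19 ± 1.27 FPKM. With coding transcripts alone the gene's difference was 0.09 (limma adjusted p = 0.632). Of the 4 calls, none was made when only the 6 libraries of these groups were fitted, or without any 1 of the sleep libraries. Of all genes, 1.26% passed in the fit of 6 libraries, and 1.7%, 2.38% and 1.71% without sleep library 1, 2 and 3. Without Fxr1 library 1 the count was 1 higher and 5 lower (9.85% of all genes, 4.12% higher and 5.72% lower). With the trend removed it was 3 higher and 4 lower (12.8% of all genes, 7.22% higher and 5.63% lower), and with both changes 3 higher and 2 lower (11.4%, 6.17% higher and 5.2% lower).

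Larger differences that did not pass were in Mrps34, Mrpl2, Mrpl53 and Mrpl54. Mrpl53 went from 2.81 ± 1.91 FPKM in sleep to 1.40 ± 0.945 with Fxr1. Mrpl54 went from 13.97 ± 0.763 to 9.70 ± 3.24 FPKM (SD, n = 3 each). Mrps34, a small subunit protein particular to mitochondria, had 16.9, 10.4 and 19.8 FPKM in sleep, 12.2, 11.6 and 12.1 under enforced wake, and 3.13, 10.2 and 9.90 with Fxr1, a difference from sleep of -1.02 (limma adjusted p = 0.122), or -0.61 with the trend removed. The spread in sleep lay in the coding transcript ENSMUST00000043907, at 7.46, 0.807 and 10.5 FPKM. Mrps34 shares exonic bases with Nme3 on the same strand and with Mapk8ip3 on the other. Mrpl2, close to the peptidyl transferase centre in bacterial ribosomes, had 20.6, 17.1 and 16.5 FPKM in sleep and 6.04, 13.8 and 11.8 with Fxr1, a difference of -0.79 (limma adjusted p = 0.0836), or -0.40 with the trend removed.

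**Figure D5:**
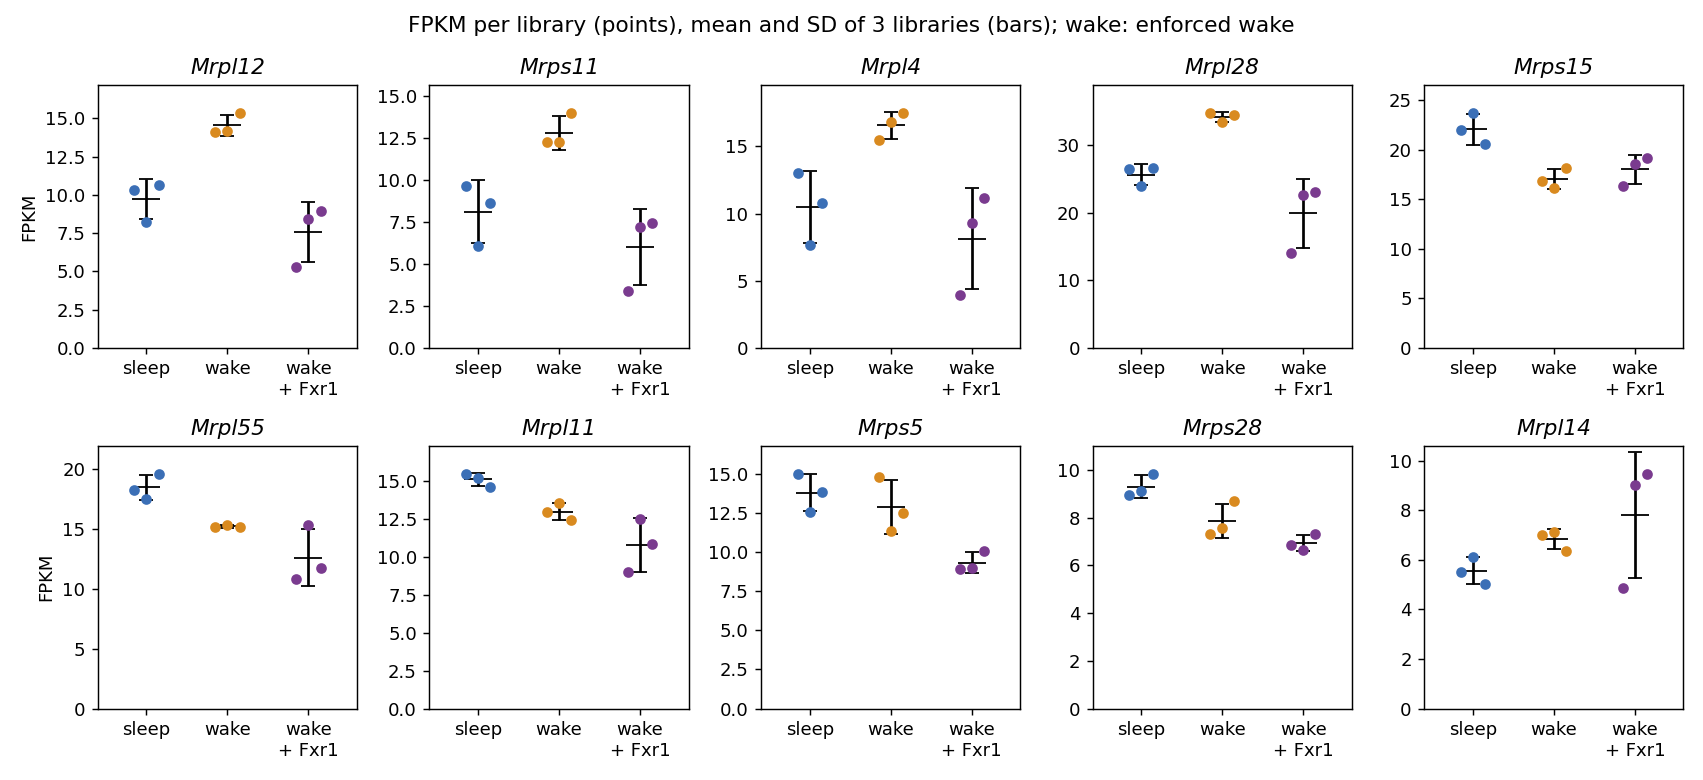
FPKM per library (points) with the mean and SD of 3 libraries (bars) for 10 of the genes in sleep, enforced wake and enforced wake with Fxr1; each panel has its own axis from 0. In Mrpl12, Mrps11, Mrpl4 and Mrpl28 the enforced wake libraries lie above all others, and in Mrps15 and Mrpl55 sleep is highest.

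Most of the family's FPKM came from protein-coding transcripts (88.2%), with 5.49% in transcripts that retain an intron. Of the 290 transcripts 150 are annotated as protein-coding, 71 as retained intron, 52 as processed transcript and 17 as targets of nonsense-mediated decay. In 6 genes the most abundant transcript retains an intron. In the authors' deposited tables no transcript of the family had a q-value under 0.05 in either comparison. Of all transcripts with a q-value, 0.0175% of 79923 did for sleep over enforced wake and 0.0303% of 79087 for Fxr1 over control. The count of 0 is therefore no result about the family. The lowest q-value in the authors' deposited tables was 0.279 for sleep over enforced wake and 0.302 for Fxr1 over control.

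Other genes of mitochondrial translation were read beside the family, against the shares of all genes that passed (28.3% in enforced wake against sleep, 0.412% for Fxr1 against enforced wake and 7.79% for Fxr1 against sleep). Of 5 mitochondrial ribosomal proteins with other symbols, Gadd45gip1 rose in enforced wake by 0.58 (SE 0.10, limma adjusted p = 0.011), from 5.77 ± 0.893 to 9.07 ± 0.256 FPKM, and by 0.40 with the trend removed (limma adjusted p = 0.0147). Dap3, a GTP-binding protein of the small subunit, fell with Fxr1 by 0.72 against enforced wake (SE 0.09, limma adjusted p = 0.0457), from 30.6 ± 2.64 to 18.2 ± 0.429 FPKM (SD, n = 3 each). It did not pass with the trend removed, at -0.59 (limma adjusted p = 0.0849).

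Of 13 translation factors 1 rose and 1 fell in enforced wake. Tufm, the elongation factor that brings transfer RNA to the ribosome, rose by 0.52 (limma adjusted p = 0.0173), or 0.33 with the trend removed (limma adjusted p = 0.0348). Mtrf1, of the release factor family, fell by 0.36 (limma adjusted p = 0.0157), or by 0.19 with the trend removed (limma adjusted p = 0.0405). No translation factor passed in the comparisons with Fxr1 as deposited. With the trend removed, 2 were higher (Mtrf1l and Taco1, named after their values were seen) and Mtrf1 was lower with Fxr1 than in sleep.

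Of 22 mitochondrial aminoacyl-tRNA synthetases, 1 rose in enforced wake, Aars2, and 4 fell, among them Rars2 and Iars2. None was higher with the trend removed, Aars2 having 0.08 (limma adjusted p = 0.315), and 4 were lower. Vars2 fell with Fxr1 against sleep by 0.84 (limma adjusted p = 0.0397), or by 0.51 with the trend removed (limma adjusted p = 0.0245). Of 26 measured genes of ribosome assembly and mitochondrial RNA handling, 3 rose in enforced wake, among them the mitochondrial RNA polymerase Polrmt by 0.42 (limma adjusted p = 0.0263), and 2 fell, among them the transcription factor Tfb2m by 0.32 (limma adjusted p = 0.0291). Polrmt had -0.007 and Tfb2m -0.12 with the trend removed, and neither passed (limma adjusted p = 0.975 and 0.338). Fastkd2, an RNA-binding protein of mitochondrial RNA granules, rose with Fxr1 against sleep by 0.42 (limma adjusted p = 0.0487), or 0.32 with the trend removed (limma adjusted p = 0.0107).

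None of the 13 proteins encoded in mitochondrial DNA passed in any comparison as deposited. After removal of the trend 1 was higher with Fxr1 than in sleep, mt-Nd3 by 0.53 (limma adjusted p = 0.0439). Their summed FPKM were 825 to 1175 in sleep, 785 to 1200 under enforced wake and 1016 to 1873 with Fxr1, so the groups overlapped. Their median difference between Fxr1 and enforced wake was 0.66, where that of the 77 nuclear genes was -0.11 on the same scale, and these medians were 0.31 and -0.02 with the trend removed. These transcripts are made inside mitochondria and are not translated on the tagged cytosolic ribosomes.

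Among 79 measured genes for proteins of the cytosolic ribosome, 39 were higher and none was lower in enforced wake (49.4%, against 28.3% of all genes), with a median difference of 0.22 against 0.0056 in the mitochondrial family. The counts were 37 higher and 2 lower with the trend removed (49.4%, against 23.6% of all genes, 10.4% higher and 13.2% lower). When all 9 libraries set the spread, 3 were higher and none lower (3.8%, against 9.56% of all genes). The difference between both families was not tested.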

How the data were processed

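The authors deposited 2 tables of transcripts, each with FPKM per library, a fold change, a p-value and a q-value, as the file headers name them. HISAT2 2.1.0, SAMtools 1.9, StringTie 1.3.4d and the build GRCm38 are listed in the submitters' processing notes. The sources used here do not name the tool that gave the folds and p-values. The authors' deposited fold is sleep over enforced wake in one table and Fxr1 over control in the other. Both tables hold the same enforced wake values, which allowed the 9 libraries to be joined.

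FPKM were summed by gene symbol, and log2(FPKM + 1) was fitted by limma 3.58.1 under R 4.3.3 (eBayes with trend, 2-sided). Genes with a mean of at least 0.5 FPKM over the libraries fitted were kept, Benjamini-Hochberg adjustment ran over all of them, and the threshold was 0.05. Differences are on the log2(FPKM + 1) scale and understate changes of low genes. The Fxr1 against sleep comparison used all 9 libraries, the others their own 6. With 3 against 3 libraries the smallest p of an exact test for a single gene is 0.1. FPKM are relative to each library's total. Depth was estimated from the commonest smallest step of FPKM times length in genes with 1 transcript.

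Named genes were those that passed, up to 10 in each direction, the 5 largest differences where fewer than 5 passed, and the 3 highest and lowest levels. From the other lists up to 4 genes that passed were named per comparison. The members and lists were chosen with earlier results of these data known. The GC and length trend was fitted per library with splines (5 degrees of freedom) over protein-coding genes of at least 1 FPKM. GC content and length were those of each gene's longest transcript, whatever its abundance. The limma code was tested on simulated data with independent genes and the same spread in both groups. The simulation held no shift with GC content and no outlying library, so it does not cover those features of these data.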

Additional observations from a re-analysis of the deposited data

How the results depend on the processing

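For enforced wake against sleep (12 higher, 9 lower), the counts were 6 and 3 with no filter on low values, 7 and 3 with a replicate block, 3 and 5 with the replicate block and the GC and length trend removed, and 1 and 1 with all 9 libraries in the fit. These were 11.7%, 13.0%, 10.4% and 2.6% of the family, against 10.2%, 21.2%, 15.3% and 9.56% of all genes. Leaving out 1 library gave 3 to 11 higher and 1 to 5 lower, with the lower count of 1 reached without sleep library 3 and without enforced wake library 2 or 3. The median was 0.0439 with coding transcripts only and -0.0175 to 0.0183 with 1 library left out. Mrps24 turned to -1.97 with coding transcripts only. With the trend removed, with or without the block, Mrpl34 turned to -0.0715 and Mrpl54 to -0.2248.

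For Fxr1 against enforced wake (none either way), 1 gene was higher with the trend removed, and 1 higher and 10 lower with all 9 libraries. Leaving out 1 library gave 0 to 1 higher and 0 to 12 lower (0% to 16.9%, against 0.0137% to 22.8% of all genes). The highest counts were both reached without Fxr1 library 1. Without that library and with the trend removed, a setting added after seeing the data, 2 were higher and none lower, and the median was 0.0203. The median of -0.1061 became -0.036 with median scaling and -0.0156 with the trend removed, with or without the block. It was -0.1302 to -0.0688 with 1 library left out. Mrpl54 turned to 0.1709 with the trend removed, with or without the block, and to 0.1626 when Fxr1 library 1 was left out too.

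For Fxr1 against sleep (0 higher, 4 lower), 3 were higher with the trend removed, 2 with the block and the trend removed, and 3 with the trend removed and without Fxr1 library 1. Lower genes numbered 2 with no filter, 2 with median scaling, 0 with the block, 2 with the block and the trend removed, 0 with only the 6 libraries compared, and 2 with the trend removed and without Fxr1 library 1. Genes called either way were 2.6%, 2.6%, 0%, 5.19%, 0% and 6.49% of the family in these settings, in order. Of all genes, 2.78%, 7.03%, 2.54%, 8.23%, 1.26% and 11.4% were called. Leaving out 1 library gave 0 to 1 higher and 0 to 5 lower (0% to 7.79%, against 1.7% to 9.85% of all genes). The median was -0.0418 with median scaling, 0.0272 with the trend removed, with or without the block, -0.1218 to -0.0461 with 1 library left out (the latter without Fxr1 library 1) and 0.0376 with the trend removed as well. Mrps5 turned to 0.0862 with coding transcripts only. The cause of these shifts was not tested.

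The replicate numbers were not shown to pair the samples: deviations of same-numbered libraries correlated at -0.0598, -0.0076 and 0.0622 for sleep and enforced wake, and at 0.0696, -0.0674 and 0.1672 for the pair with Fxr1. The replicate block is therefore given here only. All fits, and not only those that leave 2 libraries in a group, assume the same spread in every group fitted.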
